A study of Mus musculus with 30 samples.

Results

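Complement is a cascade of plasma and tissue proteins that tags surfaces for removal. C1q, assembled from the C1qa, C1qb and C1qc chains, binds a target, and the attached proteases cleave C4. A C4-containing enzyme then cleaves C3, whose fragments coat the target. C3a, a fragment of C3, and C5a, a fragment of C5, signal through receptors on phagocytes. In the brain, C1q and C3 mark synapses and amyloid plaques, microglia are known as the main source of C1q, and C4 is a known gene of reactive astrocytes. The genes described here are the C1q chains C1qa, C1qb and C1qc, the component genes C3, C4a and C4b, the receptors C3ar1 and C5ar1, and Serping1, which encodes C1 inhibitor. They were chosen by name, and all 9 were found among the 36528 gene identifiers of the data.

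RNA was sequenced from brain cells of mice aged 11.5 months, which were PS2APP transgenic or were their littermates without the transgenes (non-Tg). The PS2APP line is a model of amyloid plaque formation, named for its presenilin 2 and APP transgenes. Sorting separated myeloid cells (Cd11b+), astrocytes (Gfap+) and neurons (NeuN+), which gave 6 groups of 5 libraries. The labels name neither the promoters of the transgenes nor the animals behind each library, so each p-value reflects variation among libraries, which may be technical. Total counts ranged from 2015535 to 6749681 per library, and lay lowest in the PS2APP myeloid group (2015535 to 2908222, against 3578249 to 6143018 in non-Tg myeloid libraries). The typical RNA yield was 200 to 300 ng for neurons, 10 to 20 ng for myeloid cells and 2 to 5 ng for astrocytes, per the labels. The defining markers followed the sorts. In non-Tg libraries, 11 microglia markers summed to 7928 to 9223 CPM (counts scaled to library size) in myeloid libraries, 42.8 to 73.4 CPM in astrocyte libraries and 80.3 to 108 CPM in neuron libraries, so none of the sorts was free of microglial transcripts. The mitochondrial share of counts was 5.46% to 12.7% in non-Tg myeloid and 9.46% to 16.7% in PS2APP myeloid libraries, and in astrocyte libraries 5.60% to 8.6% against 2.41% to 4.74%, PS2APP first. The first principal component within each sort set PS2APP myeloid replicate 4, PS2APP astrocyte replicate 3 and PS2APP neuron replicate 5 far from the other libraries of their sorts.

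The C1q genes lie side by side on chromosome 4 (GRCm38.p6, C1qb at 136880126 to 136886200, C1qc at 136889801 to 136892936, C1qa at 136895916 to 136898844). C4b (34728139 to 34743902) and C4a (34809092 to 34823460) are neighbours on chromosome 17, which also holds C3 (57203967 to 57228136). C3ar1 lies on chromosome 6 (122847140 to 122856157), C5ar1 on chromosome 7 (16246743 to 16259540) and Serping1 on chromosome 2 (84765360 to 84775444). The RefSeq table lists C4a as a transcribed pseudogene and the other 8 as protein coding. How far reads can tell C4a from C4b bears on every C4 value below. Their reference transcripts (GENCODE M21, 5379 bases for C4b and 5371 for C4a) differed by 207 substitutions in 5367 aligned positions, an identity of 96.1%, with a longest identical run of 433 bases. Of all 50-base windows of C4b, 64.8% did not occur in C4a, and of all 100-base windows 83.5% did not. The files count uniquely aligned reads, so reads from shared stretches may have been left out of both genes. A stretch of coding sequence that separates them well is shown here, on the minus strand, at chr17:34735430-34735549 for C4b and chr17:34816086-34816205 for C4a, with the 19 positions at which they differ in capitals.
C4b: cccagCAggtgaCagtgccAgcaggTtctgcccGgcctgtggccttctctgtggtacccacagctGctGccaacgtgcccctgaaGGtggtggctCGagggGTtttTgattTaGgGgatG
C4a: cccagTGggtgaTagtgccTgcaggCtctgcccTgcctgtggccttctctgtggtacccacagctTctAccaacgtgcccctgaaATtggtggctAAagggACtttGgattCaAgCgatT

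C1qb and C1qc, both far higher in myeloid libraries than in the other sorts, are shown by the 250 bases upstream of their annotated starts. The C1qc window overlaps the edge of the gene span given above. The sequences are from the RefSeq promoter table (GRCm38.p6, minus strand, chr4:136886201-136886450 for C1qb and chr4:136892915-136893164 for C1qc). The core motif of PU.1, a transcription factor that myeloid cells require, was searched as GAGGAA or its reverse complement TTCCTC and is in capitals.
C1qb: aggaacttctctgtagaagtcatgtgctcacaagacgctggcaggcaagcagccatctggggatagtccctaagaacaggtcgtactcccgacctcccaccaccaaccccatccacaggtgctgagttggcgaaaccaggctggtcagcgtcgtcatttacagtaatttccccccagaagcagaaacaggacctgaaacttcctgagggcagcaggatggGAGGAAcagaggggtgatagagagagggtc
C1qc: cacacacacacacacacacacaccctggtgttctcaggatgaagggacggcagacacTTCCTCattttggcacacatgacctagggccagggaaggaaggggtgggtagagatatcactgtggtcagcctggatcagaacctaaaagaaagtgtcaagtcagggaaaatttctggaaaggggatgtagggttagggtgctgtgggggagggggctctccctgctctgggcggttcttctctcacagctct
Of the 9 genes, 5 matched the promoter table (C1qb, C1qc, C3, C3ar1 and C5ar1). The motif stood in these 2 and in no other of the 5, although C5ar1 and C3ar1 were also higher in myeloid libraries. It stood in 23.3% of all 32851 promoters over the same 250 bases.

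By their level in non-Tg mice the genes fell into a set highest in myeloid libraries and a set highest in astrocyte libraries. Levels are given here as the deposited size-factor-adjusted RPKM, which is per length. C1qb stood at 272 ± 44.4 RPKM, C1qc at 131 ± 15.5 and C1qa at 59.8 ± 7.82 in myeloid libraries (n = 5 each, SD), and the 5-library ranges of these chains did not overlap. All C1q values in astrocyte and neuron libraries of non-Tg mice were at most 1.70 RPKM. The C5a receptor gene C5ar1 (2.76 ± 0.986 RPKM) and the C3a receptor gene C3ar1 (4.48 ± 1.21 RPKM) were also highest in myeloid libraries, and their ranges overlapped. C4b stood at 23.7 ± 2.40 RPKM in astrocyte libraries, 0.801 ± 0.226 in myeloid and 0.0585 ± 0.0346 in neuron libraries. C4a followed the same order at 8.21 ± 0.578, 0.490 ± 0.220 and 0.241 ± 0.0382 RPKM. Serping1, whose product blocks the C1 proteases, was highest in astrocyte libraries at 1.53 ± 0.980 RPKM, against 0.243 ± 0.268 in myeloid libraries, whose ranges overlapped, and 0.108 ± 0.0555 in neuron libraries. Mural and fibroblast markers also summed highest in non-Tg astrocyte libraries, at 214 to 314 CPM. They summed to 17.2 to 33.5 CPM in myeloid and 11.4 to 14.2 CPM in neuron libraries. The part of such cells in these levels was not tested.

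**Figure D1:**
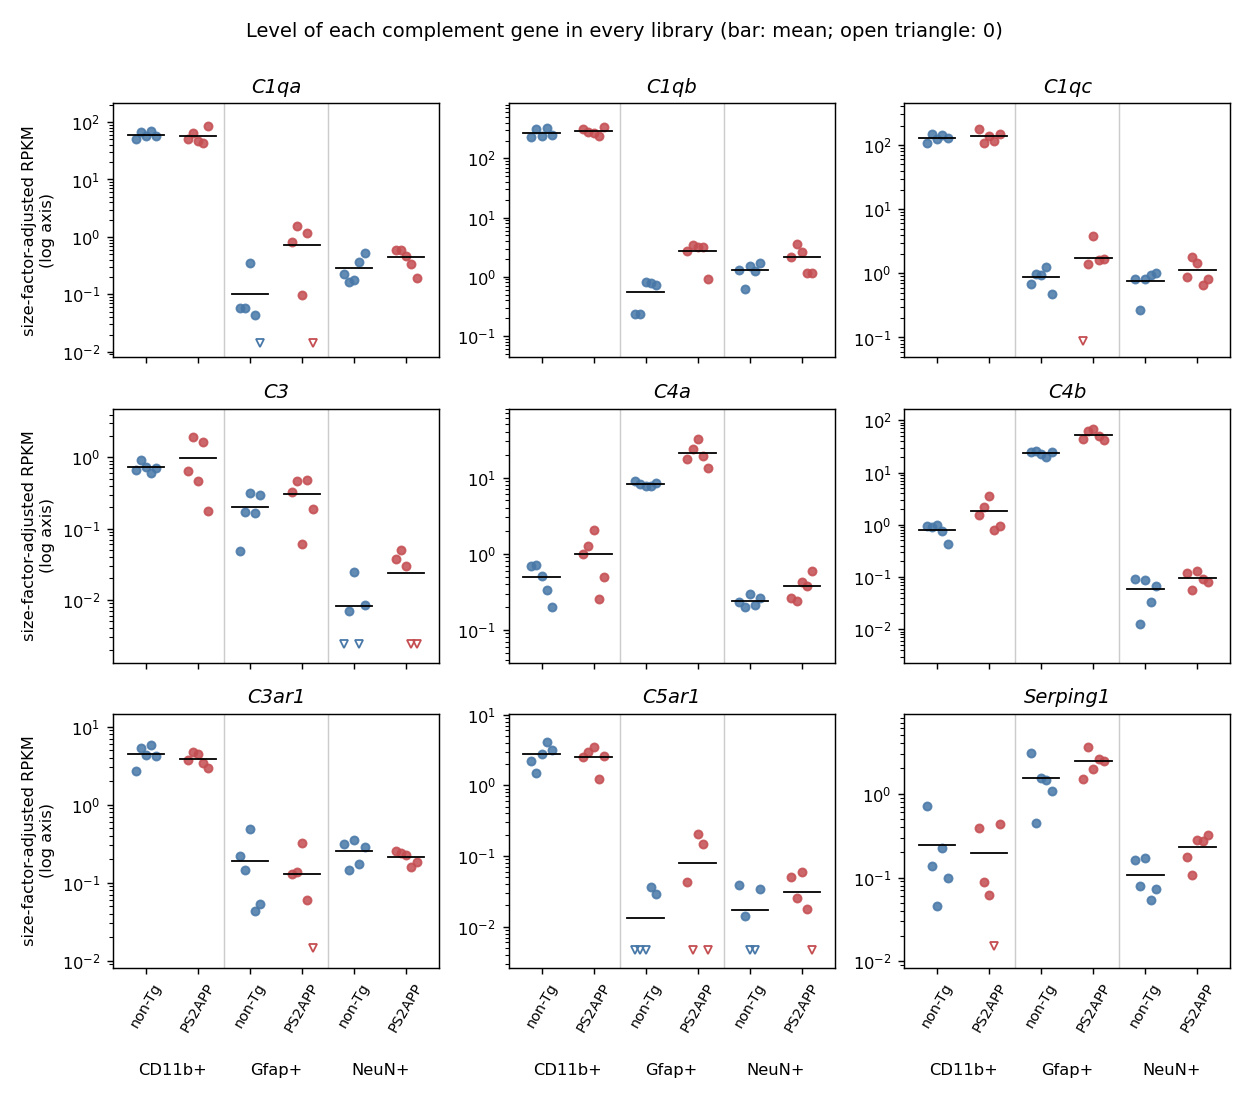
Size-factor-adjusted RPKM (log axis) of the 9 complement genes in each of the 30 libraries, by sort and genotype, with 1 point per library, a bar at the mean of 5 and open triangles for libraries at 0. The C1q genes and both receptors are highest in the CD11b+ libraries, and C4a, C4b and Serping1 in the Gfap+ libraries.

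C3, the component on which all pathways converge, was low in every sort. It stood at 0.722 ± 0.116 RPKM in non-Tg myeloid, 0.198 ± 0.108 in astrocyte and 0.00805 ± 0.0101 in neuron libraries (SD, n = 5 each). In neuron libraries this was 4 reads over all 5 libraries. C3 differed from the other myeloid-high genes in how much of its myeloid level appeared in the astrocyte sort, at 27.4%. The 11 microglia markers stood at 0.221% to 4.07% of their myeloid level there, with a median of 0.605%. C1qa (0.170%), C1qb (0.204%) and C5ar1 (0.477%) were below that median in non-Tg astrocyte libraries, C1qc was at 0.664%, and C3ar1 at 4.21%. In neuron libraries the C1q genes stood at 0.472% to 0.583% of their myeloid level, within the marker range of 0.418% to 8.33%.

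**Figure D2:**
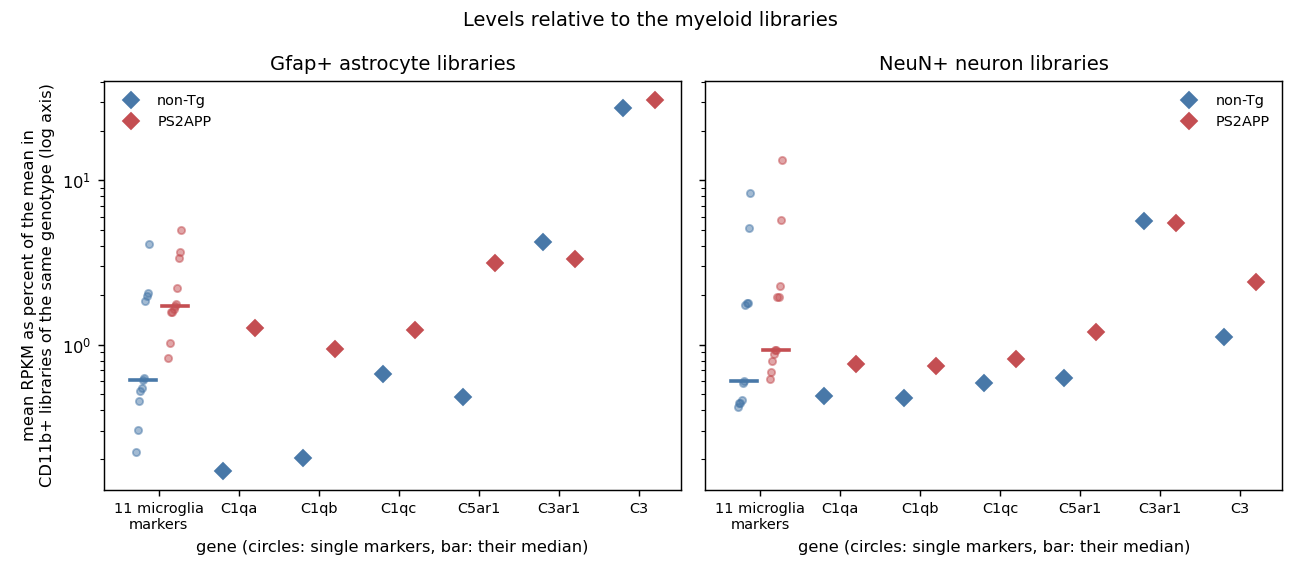
Mean RPKM in Gfap+ (left) and NeuN+ (right) libraries as a percentage of the mean in CD11b+ libraries of the same genotype (log axis), for the 11 microglia markers (circles, with a bar at their median) and 6 complement genes (diamonds). C3 in astrocyte libraries, at 27.4% in non-Tg and 31.0% in PS2APP mice, lies above every microglia marker.

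In edgeR's quasi-likelihood test on the counts of the non-Tg libraries, each of the 9 genes differed between myeloid and astrocyte libraries, 6 higher in myeloid and 3 in astrocyte libraries. Of all 17496 genes tested, 61.1% differed between these sorts (28.3% higher and 32.8% lower in myeloid libraries), so the count by itself says little, and a gene could enter the fit through the sort where it was high. The sizes were large for some members. The log2 difference was 9.51 ± 0.38 for C1qa, 9.10 ± 0.32 for C1qb, 7.36 ± 0.28 for C1qc, 7.46 ± 0.60 for C5ar1 and 2.06 ± 0.43 for C3 (SE), and -4.73 ± 0.26 for C4b. Between myeloid and neuron libraries 8 of the 9 were higher in myeloid libraries, where 70.1% of all genes differed and 33.2% were higher and 36.8% lower in myeloid libraries, and Serping1 was not (1.29 ± 0.68, edgeR adjusted p = 0.0940). Between astrocyte and neuron libraries 6 of the 9 differed, against 55.5% of all genes (26.4% higher and 29.1% lower in astrocyte libraries). C4b (8.67 ± 0.33), C4a (5.06 ± 0.27), C3 (4.43 ± 0.63) and Serping1 (3.78 ± 0.64) were higher in astrocyte libraries, and C1qa (-1.76 ± 0.56) and C1qb (-1.23 ± 0.32) were lower there than in neuron libraries. Each sort had its own RNA yield and handling, which cannot be told apart from the cell type.

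The comparison of genotypes asked which complement genes differ in cells of mice with plaques. In astrocyte libraries C4b and C4a rose, C4b from 386 ± 38.2 to 877 ± 197 CPM and C4a from 122 ± 7.97 to 321 ± 113 CPM (SD, n = 5 each), and in myeloid and neuron libraries no member passed the test. In myeloid libraries the C1q chains had log2 changes of -0.10 to 0.03. In bulk RNA of a sort, a change in the share of cells that express a gene and a change in RNA per cell cannot be told apart.

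The C4b level was 407, 425, 379, 325 and 393 CPM in the 5 non-Tg astrocyte libraries and 712, 1035, 1135, 805 and 699 CPM in the 5 PS2APP ones. All PS2APP libraries lay above all non-Tg libraries, with the wider spread in the PS2APP group. The C4a level was 134, 122, 116, 114 and 125 CPM in non-Tg and 265, 359, 496, 284 and 199 CPM in PS2APP astrocyte libraries, again without overlap and with PS2APP replicate 3 highest. The fold change was 2.27 for C4b (95% CI 1.78 to 2.90, log2 1.18 ± 0.17 SE) and 2.63 for C4a (95% CI 1.95 to 3.53, log2 1.39 ± 0.20), each with an edgeR adjusted p of 0.00504. Of the 9 genes 6 had enough counts to be tested in astrocyte libraries and 2 passed, against 26 of 14043 genes, or 0.185%, over the whole table. Both calls were kept in all 10 fits that left out 1 library, with log2 changes of 1.08 to 1.26 for C4b and 1.18 to 1.53 for C4a. They were also kept without mitochondrial and ribosomal RNA genes and Malat1 (1.18 and 1.39).

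**Figure D3:**
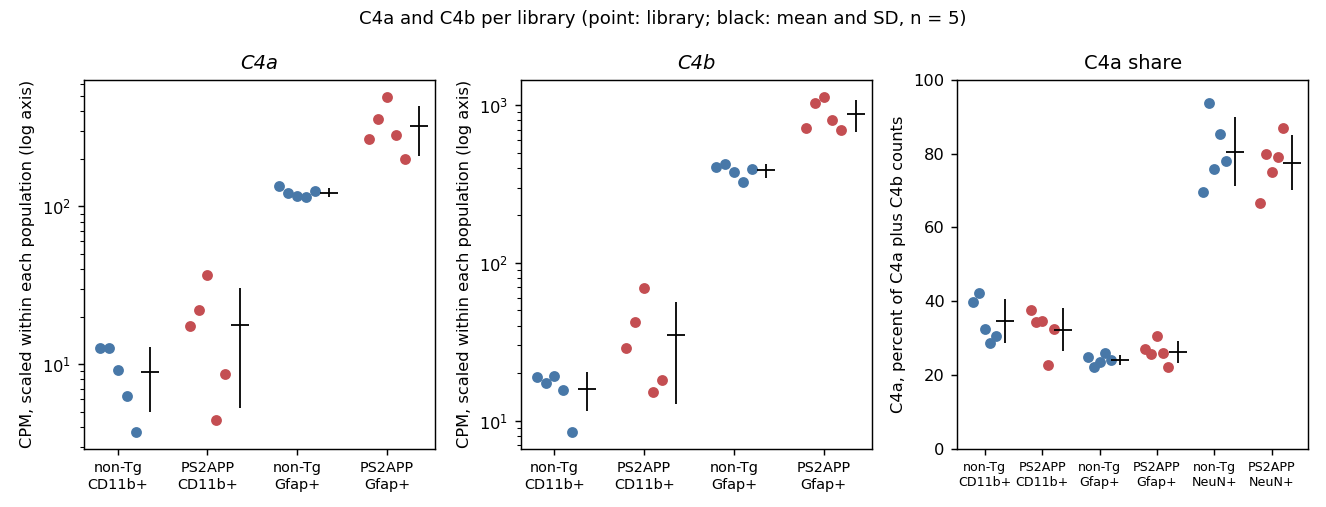
CPM of C4a (left) and C4b (centre) in CD11b+ and Gfap+ libraries (log axes), and C4a as a percentage of C4a plus C4b counts in all 6 groups (right), with 1 point per library and the mean and SD of 5 in black. In Gfap+ libraries the PS2APP points lie above all non-Tg points for both genes, and the C4a share is 24.1% and 26.3% in these groups.

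C4a and C4b moved together, and their ratio did not pass a test for a shift. C4a took 24.1% ± 1.39 of the C4a plus C4b counts in non-Tg and 26.3% ± 2.96 in PS2APP astrocyte libraries (n = 5, SD; exact permutation test, two-sided, p = 0.175 and 0.452 after adjustment over 6 tests). In myeloid libraries the share was 34.7% ± 5.95 and 32.3% ± 5.72, and in neuron libraries it was 80.4% ± 9.33 and 77.5% ± 7.44. The neuron and astrocyte ranges of this share did not overlap in either genotype (69.4% to 93.8% against 22.3% to 26.0% in non-Tg mice), but neuron libraries held only 25 to 69 C4 reads each over both genotypes. A gene model without a symbol, ID102643089, had counts equal to those of C4b in every neuron and non-Tg myeloid library, and 1 to 14 reads fewer in astrocyte libraries. It was therefore not taken as a separate signal. With C4a and C4b added up and that model left out, the log2 change in astrocyte libraries was 1.24 (edgeR adjusted p = 0.00805).

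Microglial transcripts were also higher in these libraries. The 11 microglia markers summed to 42.8 to 73.4 CPM in non-Tg and 75.1 to 125 CPM in PS2APP astrocyte libraries. Of the 8 tested 2 passed, Csf1r (1.496 ± 0.25) and Fcrls (2.98 ± 0.56), against 0.185% of all genes. With that sum as a covariate the log2 changes were 0.98 for C4b and 0.97 for C4a and neither passed (edgeR adjusted p = 0.403 and 0.427). No gene of the table passed in that fit. The marker sums of the genotypes did not overlap, so the fit cannot separate genotype from the marker sum. The neuron marker sums were 585 to 848 CPM in non-Tg and 768 to 1774 CPM in PS2APP astrocyte libraries. The oligodendrocyte marker sums were 674 to 1050.1 CPM and 862 to 1845 CPM, and 0 of the 8 markers passed (median log2 change 0.64, 7 positive). The astrocyte marker sums had a median of 11469 CPM in the non-Tg group against 9968 CPM, and 0 of 10 markers passed. The part of these in the C4 result was not tested. C4b stood at 1.79 ± 1.11 RPKM in PS2APP myeloid libraries, 3.39% of its level in PS2APP astrocyte libraries. PS2APP astrocyte replicate 5, with a microglia marker sum of 75.1 CPM, had 699 CPM of C4b. Non-Tg replicates 3 and 5, with 73.4 and 72.3 CPM, had 379 and 393 CPM. These are single libraries picked for their similar sums, and the part of microglial RNA in the C4 result was not tested.

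**Figure D4:**
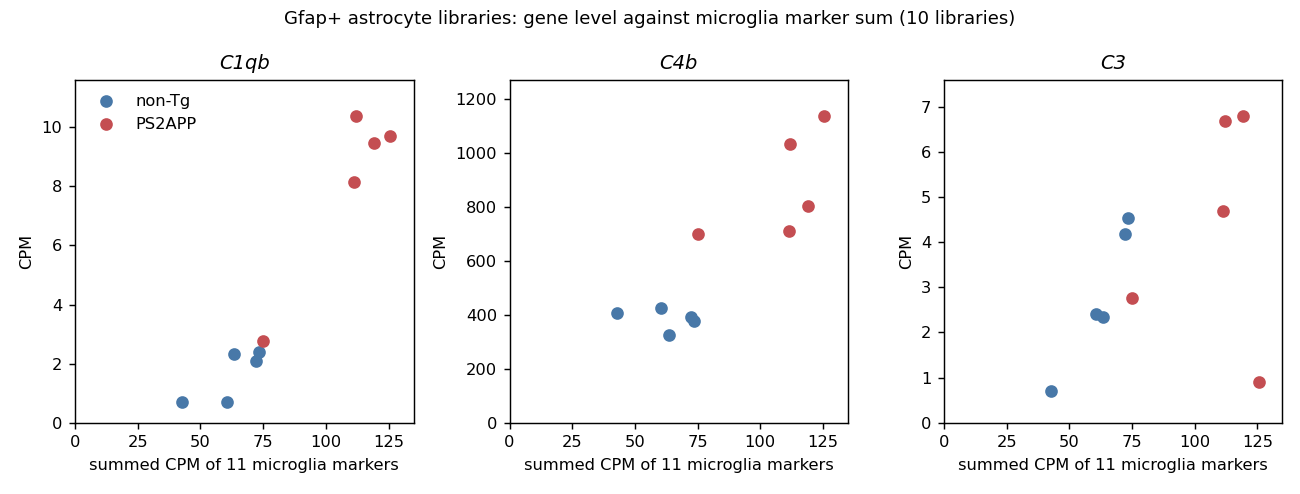
CPM of C1qb, C4b and C3 in the 10 Gfap+ libraries against the summed CPM of 11 microglia markers, with 1 point per library. C4b is at 325 to 425 CPM in the non-Tg and 699 to 1135 CPM in the PS2APP libraries. C1qb is at 0.688 to 2.40 CPM and 2.76 to 10.4 CPM. The relation of these genes to the marker sum was not tested.

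C1qb, a chain of the recognition molecule, was also higher in PS2APP astrocyte libraries without passing the test. It was at 0.695, 0.688, 2.40, 2.34 and 2.10 CPM in non-Tg and at 8.14, 10.4, 9.72, 9.46 and 2.76 CPM in PS2APP astrocyte libraries. The groups did not overlap, although PS2APP replicate 5 was just above the highest non-Tg library. Of the 6 genes tested, 3 (C4a, C4b and C1qb) had groups that did not overlap with PS2APP higher, against 1.26% of all genes tested (2.99% in either direction). The log2 change of C1qb was 2.30 ± 0.53 and missed the threshold (edgeR adjusted p = 0.0777), while DESeq2 called it (adjusted p = 0.00204). So did 1 edgeR fit of all 30 libraries (adjusted p = 0.000313), which estimates the spread over all sorts together (SE 0.36). With the microglia marker sum as a covariate it was 0.31 (edgeR adjusted p = 0.916), in the fit that cannot separate genotype from that sum. As a share of the microglia marker counts, however, C1q was higher, at 14.0% in PS2APP against 7.37% in non-Tg astrocyte libraries (n = 5 each, exact permutation test, two-sided, p = 0.0159 and 0.0476 after adjustment over 6 tests). These values rest on 8 to 53 C1qb reads per PS2APP library. C1qa had 1, 1, 4, 1 and 0 reads in non-Tg and 8, 14, 1, 20 and 0 reads in PS2APP astrocyte libraries, too few for the test within the sort. C1qc had 12, 17, 11, 30 and 7 reads and 0, 13, 40, 28 and 15 reads, with overlapping groups (0.99 ± 0.66, edgeR adjusted p = 0.450).

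The share of each chain was not tested between sorts, and counts outside the myeloid sort were low. In non-Tg myeloid libraries C1qc took 27.4% to 30.4% of the C1q counts, and in non-Tg astrocyte libraries 41.2% to 77.3%, at 17 to 49 C1q reads a library. In PS2APP mice it took 24.2% to 33.8% in myeloid libraries and 0% to 65.2% of 23 to 101 reads in astrocyte libraries, so that these ranges overlapped. Within the neuron sort the C1qc share was 25.8% to 37.5% in non-Tg and 25.0% to 38.6% in PS2APP libraries. All C1q counts together made up 0.000501% of the total in non-Tg and 0.00142% in PS2APP astrocyte libraries (n = 5 each, exact permutation test, two-sided, p = 0.00794, the smallest that 5 against 5 allows, and 0.0476 after adjustment over 6 tests). The same test gave adjusted p = 0.452 in myeloid and in neuron libraries.

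The other tested genes of the astrocyte sort did not pass. C3 was at 0.695, 2.41, 4.54, 2.34 and 4.19 CPM in non-Tg and at 4.69, 6.69, 0.911, 6.78 and 2.76 CPM in PS2APP libraries, a log2 difference of 0.65 ± 0.58 (95% CI -0.57 to 1.88, edgeR adjusted p = 0.581). The groups overlapped, and PS2APP replicate 3, which had the highest C4b level, had 3 C3 reads. Serping1 was at 15.6, 2.24, 8.01, 7.41 and 5.45 CPM in non-Tg and at 7.82, 18.4, 10.3, 13 and 12.7 CPM in PS2APP libraries (0.68 ± 0.42, 95% CI -0.20 to 1.57, edgeR adjusted p = 0.415). C3ar1 and C5ar1 had too few reads to be tested there. C5ar1 had 3 reads over the 5 non-Tg and 12 over the 5 PS2APP astrocyte libraries, and C3ar1 had 54 and 27.

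**Figure D5:**
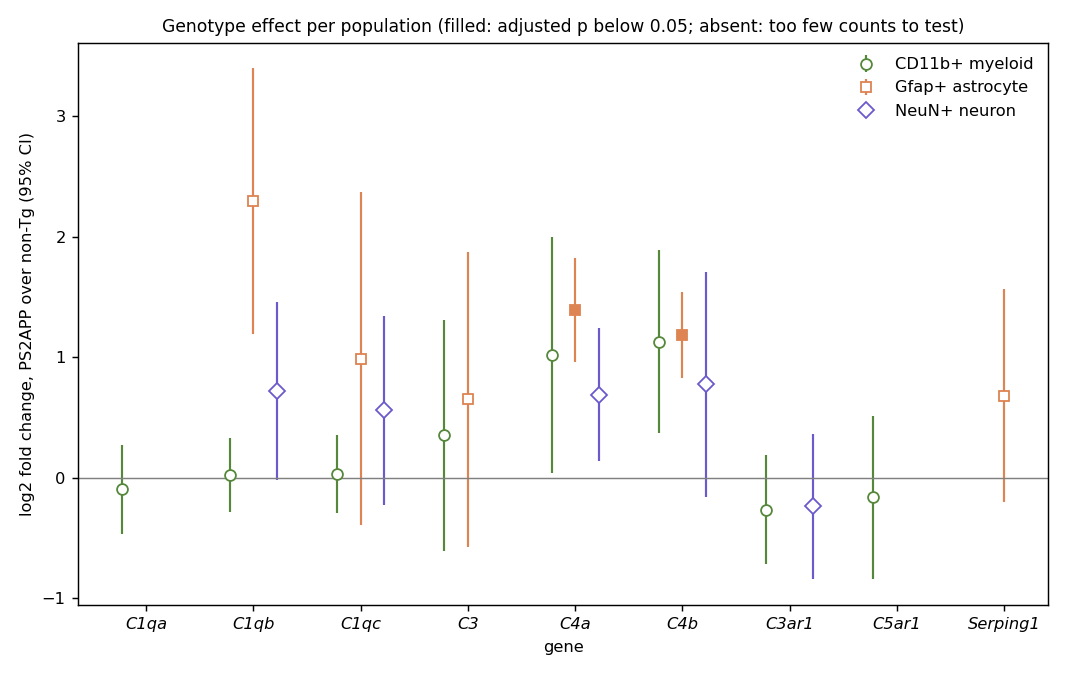
Log2 fold change of PS2APP over non-Tg with its 95% CI for each complement gene in each sort, with filled symbols for an edgeR adjusted p below 0.05. Only C4a (1.39) and C4b (1.18) in Gfap+ libraries are filled, and the C1q intervals in CD11b+ libraries lie between -0.46 and 0.36.

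In myeloid libraries 8 of the 9 genes were tested and none passed in edgeR, against 3.36% of all 12274 genes (1.86% higher and 1.5% lower). No member's groups were without overlap, against 4.8% of all genes. At an unadjusted p under 0.05 there were 2 of 8, against 19.3% of all genes, and DESeq2 called 1 (C4b). C1qb was at 836, 1093, 866, 1199.7 and 918 CPM in non-Tg and at 1083, 974, 945, 813 and 1188 CPM in PS2APP libraries, fully overlapping. The log2 changes were 0.03 ± 0.15 for C1qb (95% CI -0.28 to 0.33), 0.03 ± 0.16 for C1qc (95% CI -0.29 to 0.36) and -0.10 ± 0.18 for C1qa (95% CI -0.46 to 0.27). These intervals leave room for changes of up to about 1.28-fold up (C1qc) and, for C1qa, down to 0.725 of the non-Tg level. PS2APP replicate 5 had the highest C1qa level at 300.2 CPM and PS2APP replicate 4 the lowest at 152 CPM.

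The microglia markers in sum were lower in PS2APP myeloid libraries, at 6094 to 7857 CPM against 7928 to 9223 CPM. Of these 11 markers Cx3cr1, Tmem119 and P2ry13 passed as lower and none as higher, against 1.5% and 1.86% of all genes. The log2 changes of the 11 were mixed, from -0.71 to 0.36, with a median of -0.36 and 2 positive. Counted against the markers, C1q was higher in PS2APP mice, at 24.7% ± 2.00 of the marker counts against 19.8% ± 2.18 in the non-Tg group (n = 5 each, SD; exact permutation test, two-sided, p = 0.00794 and 0.0476 after adjustment over 6 tests). Counted against the library total it was 0.157% and 0.183%, the opposite direction. The direction for C1q in myeloid libraries thus depends on the denominator.

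C4b was at 19.0, 17.4, 19.2, 15.7 and 8.47 CPM in non-Tg and at 28.9, 42.3, 69.2, 15.3 and 18.0 CPM in PS2APP myeloid libraries. Replicates 1, 2 and 3 of the PS2APP group lay above all non-Tg libraries, and replicates 4 and 5 within their range. The log2 change of 1.13 ± 0.37 missed the threshold in edgeR (adjusted p = 0.0842) and passed in DESeq2 (adjusted p = 0.0304). Without PS2APP replicate 3 it was 0.71 (edgeR adjusted p = 0.301), and no fit that left out 1 library called it. C4a had 1.02 ± 0.47 (edgeR adjusted p = 0.239). The astrocyte marker sums of these libraries were 541 to 1036 CPM in non-Tg and 660 to 1039.9 CPM in PS2APP mice. Of the 10 astrocyte markers 1 passed as higher and 1 as lower, against 1.86% and 1.5% of all genes. Their median log2 change was -0.23, and 4 were positive. Gfap, one of these markers, went from 11.7 to 22.3 CPM to 85.3 to 176 CPM. The oligodendrocyte marker sums of the myeloid libraries were 1118 to 1829 CPM in PS2APP mice against 653 to 1045 CPM, without overlap. Of the 5 oligodendrocyte markers tested 2 rose, against 1.86% of all genes. The neuron marker sums were 174 to 269 CPM and 241 to 421 CPM. The level of C4b in myeloid libraries was 3.38% of that in astrocyte libraries in non-Tg and 3.39% in PS2APP mice, and the astrocyte markers had medians of 4.20% and 6.65%. The part of RNA of other cells in the myeloid C4 values was not tested.

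C3 spread widely in PS2APP myeloid libraries, at 10.8, 32.8, 7.98, 27.4 and 3.0 CPM, against 11.6, 15.4, 12.8, 10.7 and 12.4 CPM in non-Tg libraries. Replicates 2 and 4 lay above all non-Tg libraries, replicates 3 and 5 below them and replicate 1 within their range, and the log2 change was 0.35 ± 0.46 (95% CI -0.61 to 1.31). Without PS2APP replicate 2 it was -0.06. The monocyte and neutrophil marker sum was 249, 658, 376, 155 and 18.0 CPM in these 5 PS2APP libraries, and 65.7 to 967 CPM in the non-Tg group. Replicate 2 was highest and replicate 5 lowest in both this sum and C3, while replicate 3 had a higher sum and lower C3 than replicate 4. The relation of this sum to C3 was not tested. C3ar1 was at 41.6 to 67.6 CPM in PS2APP and 39.9 to 86.5 CPM in the non-Tg group, a log2 difference of -0.26 ± 0.22 (edgeR adjusted p = 0.537). C5ar1 was at 10.19 to 29.7 CPM and 12.6 to 36.4 CPM (-0.16 ± 0.33, edgeR adjusted p = 0.829). Serping1 had 0 to 18 reads per myeloid library and was not tested.

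In neuron libraries 5 of the 9 genes were tested and none passed in edgeR or DESeq2, against 0.00623% of all 16064 genes in edgeR. No member's groups were without overlap, against 3.13% of all genes. At an unadjusted p under 0.05 there was 1 of 5, C4a, against 22.9% of all genes. C4a was at 4.60, 4.05, 5.64, 4.17 and 5.22 CPM in non-Tg and at 5.16, 4.71, 8.55, 7.36 and 12 CPM in PS2APP libraries, a log2 change of 0.69 ± 0.26 (edgeR adjusted p = 0.187). The groups overlapped, and PS2APP replicate 5 was highest. The other values were 0.78 ± 0.43 for C4b, 0.72 ± 0.34 for C1qb, 0.56 ± 0.36 for C1qc and -0.24 ± 0.28 for C3ar1. The microglia marker sum was 80.3 to 108 CPM in non-Tg and 76.4 to 146 CPM in PS2APP neuron libraries. With that sum as a covariate C4a passed (edgeR adjusted p = 0.043), in a fit that called 2508 genes of the whole table against 1 without it.

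The genotype effects were compared between sorts in 1 fit of all libraries. That fit estimates the spread of each gene over all sorts together. The astrocyte effect of C1qb has an SE of 0.36 in it, against 0.53 within the sort. For C1qa and C1qb the effect was lower in myeloid than in astrocyte libraries, by -3.23 ± 0.73 and -2.36 ± 0.44 on the log2 scale (edgeR adjusted p = 0.0219 and 0.00482). C1qa had too few reads for the test within the astrocyte sort and entered this fit through its high myeloid level, so only the C1qb difference concerns a gene tested in both sorts. With C1qa counted, these were 2 of 9 members, against 0.757% of all genes in either direction, 0.464% in this one and 0.293% in the other. As C1qa entered through its myeloid level, no weight is put on that count. The C1qa difference rests on 7 reads over the non-Tg and 43 over the PS2APP astrocyte libraries and was called in 25 of 30 fits that left out 1 library, and the C1qb difference in 30 of 30. For C4b the difference was -0.10 ± 0.40 (95% CI -0.91 to 0.71) and for C4a -0.41 ± 0.46 (95% CI -1.34 to 0.53), so a different C4 response of myeloid and astrocyte libraries was not detected. No member differed between myeloid and neuron libraries (edgeR, 0 of 9 against 0.105% of all genes, of which 0.0939% higher and 0.011% lower, 0 at an unadjusted p under 0.05 against 9.65%, and 0 in DESeq2). None differed between astrocyte and neuron libraries either (edgeR, 0 of 9 against 0.0331%, 2 at an unadjusted p under 0.05 against 4.97%, and 0 in DESeq2), with C4b at 0.37 ± 0.57.

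Of 52 other complement genes, 17 were tested in myeloid libraries. Of these 1 rose and 2 fell, against 1.86% and 1.5% of all genes. The median log2 change of the 17 was -0.28, against -0.00 over all genes. Itgax, the alpha chain of complement receptor 4, went from 22.4, 30.7, 12.8, 12.2 and 16.7 CPM in non-Tg to 47.4, 78.2, 99.97, 78.3 and 95.6 CPM in PS2APP libraries, a log2 change of 2.07 ± 0.27 (edgeR adjusted p = 8.82e-05). Csmd3, of a family of membrane proteins whose member CSMD1 inhibits complement in human cells, fell by 0.75 ± 0.14 (edgeR adjusted p = 0.00696). The calls of Itgax and Csmd3 were kept in all 10 fits that left out 1 library. With the neuron marker sum as a covariate Csmd3 had -0.70 and did not pass (edgeR adjusted p = 0.281), while Itgax did. Itgam and Itgb2, the chains of complement receptor 3, had -0.41 ± 0.14 (edgeR adjusted p = 0.101) and -0.04 ± 0.17, and C5ar2, a second C5a receptor, had -0.77 ± 0.23 (edgeR adjusted p = 0.0634).

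None of the other complement genes passed in astrocyte (17 tested) or neuron libraries (18 tested), against 0.185% and 0.00623% of all genes. Clu, which encodes the soluble regulator clusterin and is an astrocyte gene, stood at 85.1 ± 6.66 RPKM in non-Tg and 88.9 ± 18.7 RPKM in PS2APP astrocyte libraries (log2 change 0.08 ± 0.16). The lectin pathway proteases Masp1 (-0.74 ± 0.24, edgeR adjusted p = 0.159) and Masp2 (-1.09 ± 0.40, edgeR adjusted p = 0.189) and Vtn (1.16 ± 0.36, edgeR adjusted p = 0.157), which encodes the soluble regulator vitronectin, did not pass. Parts of the classical cascade were hardly measured. C2 and C1s2, proteases that act with C4 and C1q, stood at most at 0.278 and 0.282 RPKM in any non-Tg group, and C1rl, related to the protease C1r, at 0.954 RPKM in myeloid libraries. The terminal pathway genes C7, C8b and Hc, which encodes C5, stood at most at 0.221, 0.154 and 0.0458 RPKM in any non-Tg group. Of the alternative pathway, Cfp (properdin) stood at 7.27 RPKM in astrocyte, 6.09 in neuron and 2.09 in myeloid libraries, Cfb (factor B) at 1.15, 1.10 and 0.473, and Cfd (factor D) at no more than 0.0356.

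Over the 30 libraries, the genes most like each member in log2 (CPM + 1) were mainly those of the same sort, which this measure cannot separate from a shared cell type. For C1qa they were Laptm5 (Pearson r = 0.990), Itgam (0.989) and Runx1 (0.988), for C3ar1 Lst1 (0.9751), Sash3 and Rhobtb1, and for C5ar1 A630001G21Rik (0.985), Themis2 and ID102642044. For C4b they were ID102643089 (1.0), Sorbs3 (0.985) and Ndrg2 (0.984), and for Serping1 Colec12 (0.937), Tns2 and Grk3. For C3 they were ID102642251 (0.994), Rin2 (0.932) and Mapkapk3 (0.924). ID102642251, which has no symbol, had 0 to 44 reads fewer than C3 and may not be separate from it. After the group means were taken out, C4a and C4b still went together over the 10 astrocyte (r = 0.884) and 10 myeloid libraries (r = 0.953). They did so less over the 10 neuron libraries (r = 0.345). C1qa and C1qb had r = 0.814 in myeloid, 0.717 in neuron and 0.578 in astrocyte libraries. C1qb and C1qc went together in myeloid (0.795) and neuron libraries (0.915) but not in astrocyte libraries (0.010). C1qa and C1qc had only 0.401 in myeloid, 0.618 in neuron and -0.327 in astrocyte libraries.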

How the data were processed

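Libraries were grouped by sort and genotype from their labels. The authors deposited, per the file headers, a raw count of uniquely aligned reads per gene model and a size-factor-adjusted RPKM for each library. The submitters' processing notes name GSNAP and GRCm38, with no version or annotation stated. Entrez identifiers were matched to mouse symbols (31049 of 36528, holding 96.7% of counts). Genes kept by filterByExpr were tested on counts with edgeR 4.0.16 (R 4.3.3, TMM, quasi-likelihood test, Benjamini-Hochberg adjusted p below 0.05), within each sort for genotype, and in 1 fit of the non-Tg or of all 30 libraries for levels and for differences of effect. DESeq2 1.42.0 was an alternative. CPM are per TMM-adjusted library within a sort, and RPKM was used for levels between genes and sorts. Shares were tested with two-sided exact permutation tests (scipy 1.17.1). Fits were tested on simulated data. The lowest total count was 2015535, where 3 counts equal 1.49 CPM, and intervals cover counting and library spread only. Alternatives were other normalisations, no filter on low counts, leaving out mitochondrial and ribosomal genes, a covariate of other-cell markers (microglia markers in astrocyte and neuron libraries, neuron markers in myeloid libraries), a joint fit and leaving out each library. One alternative, C4a and C4b added up, was chosen after seeing the data. The members and lists were chosen with earlier results of these data known. Named genes were the 9 members, other complement genes that passed a genotype test, the up to 3 with the highest non-Tg level in each role, and the 3 genes most like each of 6 members. The cell type markers named singly (Csf1r, Fcrls, Gfap, Cx3cr1, Tmem119 and P2ry13) were chosen after their values were seen. A result for 1 of the other complement genes is not reported here.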

Additional observations from a re-analysis of the deposited data

Results flagged for a closer look

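C1qa in non-Tg astrocyte replicate 3 stood at 1.07 CPM (4 reads), far from the other 4 libraries of its group. Serping1 in non-Tg myeloid replicate 1 stood at 4.44 CPM (18 reads), likewise far above the others. These were 2 of 54 groups examined, and chance flags about 1 in 20.

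The genotype effect differed between sorts for C1qa, by -3.23 on the log2 scale (myeloid minus astrocyte, edgeR adjusted p = 0.0219), and for C1qb, by -2.36 (edgeR adjusted p = 0.00482). C1qa had too few astrocyte reads (7 in non-Tg and 43 in PS2APP libraries in all) to be tested within that sort and entered the fit through its myeloid level. Its call was lost without PS2APP astrocyte replicate 2 or 4 or non-Tg astrocyte replicate 2, 4 or 5. The microglia marker sum of the astrocyte libraries was 42.8 to 73.4 CPM in non-Tg and 75.1 to 125 CPM in PS2APP mice, and its part in these differences was not tested.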

How the results depend on the processing

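No paired analysis was possible because the replicate numbers follow accession order and the labels tie no libraries to an animal. The cause of the changes below was not tested. In myeloid libraries 412 genes were called, and 939 without a filter, 899 with DESeq2, 21 with the other-cell marker covariate (neuron markers there, microglia markers in the other sorts) and 798 in the joint fit, with 1 member (C4b) in place of 0 without a filter, with DESeq2 and in the joint fit. There C1qb and C1qc had -0.031 and -0.024 without a filter and -0.051 and -0.042 in the joint fit, and C1qa 0.035 and C3 -1.05 with the covariate. In astrocyte libraries 26 genes became 514, 327, 0 and 295 under the same settings, and 2 members became 0 with the covariate and 4 in the joint fit (with C1qa, which enters it only through its myeloid level, and C1qb), with C3 at -0.86 with the covariate. In neuron libraries 1 gene became 15, 153, 2508 and 5, and 1 member (C4a) passed with the covariate. For differences of effect, myeloid minus astrocyte called 137 genes, 213 without a filter and 382 with DESeq2, where C4b had 0.021 with RLE and 0.014 with DESeq2. Myeloid minus neuron called 19 and 85 with DESeq2, with C3ar1 at 0.025 under RLE and 0.030 under DESeq2, and astrocyte minus neuron 6 and 17. The C1q share in myeloid libraries was 4.92 points higher against microglia marker counts.

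Leaving out 1 library each gave 105 to 652 genes called in myeloid, 8 to 125 in astrocyte and 1 to 11 in neuron libraries, 12 to 27 for myeloid minus neuron and 1 to 11 for astrocyte minus neuron, and 1 to 2 members for myeloid minus astrocyte. The C4a share difference ranged from 1.19 to 3.25 points in astrocyte, -3.91 to 0.043 in myeloid and -5.67 to 0.41 in neuron libraries. In astrocyte libraries 1 of the 10 tests of this share passed before adjustment (exact permutation test, two-sided, p = 0.0317). Log2 changes that changed sign were those of C1qb (-0.040 to 0.11), C1qc (-0.074 to 0.12), C3 (-0.064 to 0.63) and C5ar1 (-0.33 to 0.034) in myeloid libraries. Differences of effect that changed sign were C1qc (-0.14 to 0.70) and C3ar1 (-0.89 to 0.39) for astrocyte minus neuron, C3ar1 (-0.48 to 0.79) and C4b (-0.51 to 0.10) for myeloid minus astrocyte, and C3ar1 (-0.26 to 0.032), C4a (-0.16 to 0.51) and C4b (-0.13 to 0.58) for myeloid minus neuron. Levels that changed sign were C1qc (-0.056 to 0.35) and C5ar1 (-1.13 to 0.091) for astrocyte minus neuron. Low counts of C1q and C5ar1 outside the myeloid sort limit those values.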
